A study of Mus musculus with 4 samples.

Results

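The genes described here are 10 outputs of cytokine and STAT signalling, chosen by symbol from the 55401 genes of the table: Osm, Cish, Socs1, Socs2, Socs3, Pim1, Pim2, Cebpb, Stat3 and Stat5a. They were picked with their read counts in these libraries and their difference between daidzein and Control already known. Their levels and differences are therefore a description, and the calls that the fit over all genes made for them are listed beside those for all genes and support nothing. Each of the 10 had 1 row, passed the filter on low counts, and had at least 229 reads in every library.

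RNA was sequenced from cultured mouse cells labelled as female germline stem cells (FGSCs), from the ovary of C57BL/6 animals. The 2 Control libraries came from cultures given DMSO, the solvent, and the 2 Daidzein libraries from cultures given daidzein, a soy isoflavone. Both groups grew in the same medium, which held serum, leukemia inhibitory factor (LIF) and 3 growth factors: epidermal growth factor, basic fibroblast growth factor and GDNF, the glial cell line-derived neurotrophic factor. The sources used here give no dose, no duration of treatment and no age of the animals. They also do not say whether the replicates are separate cultures, so the spread between them may be technical. Library totals ran from 16230400 to 18537134 reads.

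The markers of the labelled cell type were checked. Of 10 germline markers, 8 had at most 3 reads over the 4 libraries together, and their summed level was 0.060 to 0.41 FPKM (reads scaled by exon length and library total) per library. Pou5f1 had 0 reads, Ddx4 had 2 and Dazl had 1. Of 12 mast cell markers, Cpa3, Gata2 and Kit averaged 481, 244 and 72.5 FPKM, while Fcer1a, Tpsb2, Tpsab1 and Mcpt4 had 0 reads. That list summed to 825 and 807 FPKM in the Control libraries and 850 and 822 in the Daidzein libraries. Macrophage, stromal and granulosa cell markers summed to at most 9.02, 0.10 and 1.10 FPKM, with Csf1r at 4 reads in all, Col1a1 at 2 and Amh at 113. Most of the macrophage sum came from Fcgr1 and Cd68, at 5.69 and 2.60 FPKM on average. In such bulk samples fewer cells of a type and less RNA per cell cannot be told apart.

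Cytokines of the interleukin 6, interleukin 3 and related families bind receptors that carry JAK kinases. The kinases phosphorylate STAT proteins, which enter the nucleus and bind paired half-sites in target genes. Among the targets are genes that shut the pathway down, above all Cish and the Socs genes, and genes that carry its effects, such as the Pim kinases and the cytokine gene Osm itself. In blood cells Stat5a and its close copy Stat5b carry growth signals from interleukin 3 and related factors. Cebpb, a leucine zipper transcription factor, acts together with Stat3 in inflammatory responses.

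Promoter sequence from RefSeq on GRCm38.p6 was found for 8 of the 10 genes, in windows from 250 bases before to 50 bases from the start site. The STAT motif TTCNNNGAA, which reads the same on both strands, was in the windows of 2 of these genes, Cish and Socs3, and in 8.30% of all 32851 windows. The stretches that hold it are shown because they carry the paired half-sites, in capitals, that STAT proteins can bind. The Cish stretch is at chr9:107296654-107296683 on the plus strand and starts 5 bases before the RefSeq start site. It lies inside the annotated Cish gene, overlaps a Cish exon and also overlaps the gene Gm17040 on the minus strand. The Socs3 stretch is at chr11:117969505-117969534 on the minus strand and starts 168 bases before the RefSeq start site. It lies inside the annotated Socs3 gene and overlaps no annotated exon.
Cish: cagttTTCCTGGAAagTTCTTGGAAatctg
Socs3: gccagaaaccagccTTCTTAGAAgggaggg

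Cish had 2 matches close together and Socs3 had 1. The windows of Cebpb, Socs1, Pim1, Pim2, Stat3 and Stat5a had none, which says only that these letters are not in those windows. Osm and Socs2 were not matched.

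The Cebpb stretch is shown because that gene had the largest difference of the 10. It holds 2 copies of TGACG, the half-site of the cAMP response element, in capitals. It lies at chr2:167688765-167688914 on the plus strand, ends at the base before the start site, overlaps no annotated exon and is inside the gene body of Tmem189, which runs on the minus strand. The half-site, searched on both strands, was in 20.8% of all windows and in those of 3 of the 8 genes, Cebpb, Cish and Stat5a. Both motifs are matches of letters and were not tested as sites.
Cebpb: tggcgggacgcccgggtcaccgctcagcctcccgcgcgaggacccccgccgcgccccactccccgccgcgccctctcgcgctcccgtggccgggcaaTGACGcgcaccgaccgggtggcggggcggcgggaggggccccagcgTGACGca

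All 10 genes were expressed in both groups, over a wide range of levels. Per length, the survival kinase gene Pim1 was highest at 48.3 ± 2.84 FPKM (SD, n = 4 libraries), followed by the cytokine gene Osm at 35.9 ± 6.63 and Stat5a at 31.6 ± 0.757. Socs1, Pim2, Cebpb and Cish followed at 18.7 ± 2.37, 18.4 ± 0.846, 15.9 ± 3.61 and 13.6 ± 1.05 FPKM. Socs2 stood at 9.51 ± 0.442, Stat3 at 8.37 ± 0.196 and Socs3, the lowest, at 5.06 ± 0.554 FPKM. Neighbours in this order whose libraries overlapped were Osm with Stat5a, and Socs1, Pim2 and Cebpb each with the next. The other neighbours did not overlap in any library. Pim1 was above 93.1% of the genes with a read, and Socs3 above 65.4%.

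**Figure D1:**
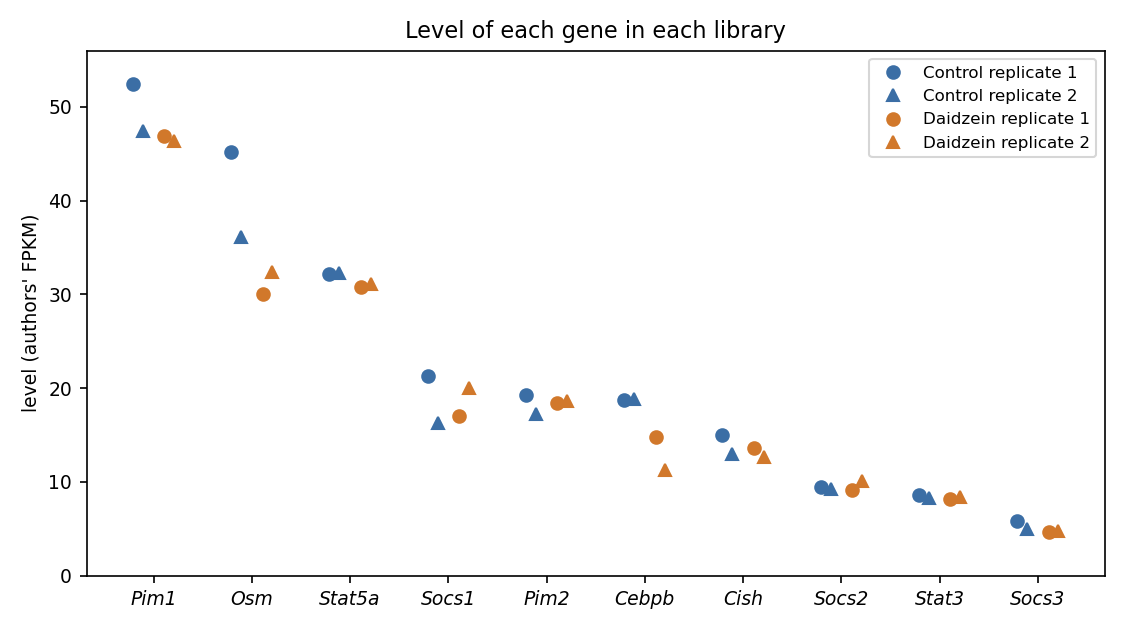
Level of each of the 10 genes in each library, in the authors' FPKM (vertical axis, linear, from 0), with genes ordered by their mean over 4 libraries; circles are replicate 1, triangles replicate 2, blue Control and orange Daidzein. Pim1 sits highest at 46.3 to 52.5 FPKM and Socs3 lowest at 4.61 to 5.86 FPKM, and the groups separate most for Osm and Cebpb.

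Cebpb and Osm had the largest differences, both lower with daidzein. Against them stood 8 genes with folds between 0.871 and 1.03. Of the 10 genes, 8 were lower and 2 higher, with a median log2 difference of -0.08, beside -0.0027 over all 11700 genes tested. In 5 of the 10 both Daidzein libraries lay below both Control libraries and in 0 above, where 15.0% of all tested genes lay below and 14.7% above. Since the genes were chosen on this contrast, nothing is read from these counts.

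None of the 10 passed the threshold in the fit over all genes. By edgeR's quasi-likelihood test at a Benjamini-Hochberg adjusted p of 0.05, 0 of the 10 were called, beside 0.0171% of all tested genes, which are Fos and Fosb. At an unadjusted p under 0.05 there were 2, Osm and Cebpb, by edgeR, beside 2.91% of all tested genes. DESeq2 and limma had 2 each at that level, beside 81 and 461 of the 11700 tested genes. Both also called 0 of the 10 after adjustment. With 1 library left out the count was 1 without Control replicate 2 (Osm), 1 without Daidzein replicate 1 (Cebpb), 1 without Daidzein replicate 2 (Osm) and 0 without Control replicate 1. With no filter on low counts edgeR called 2, Osm and Cebpb.

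**Figure D2:**
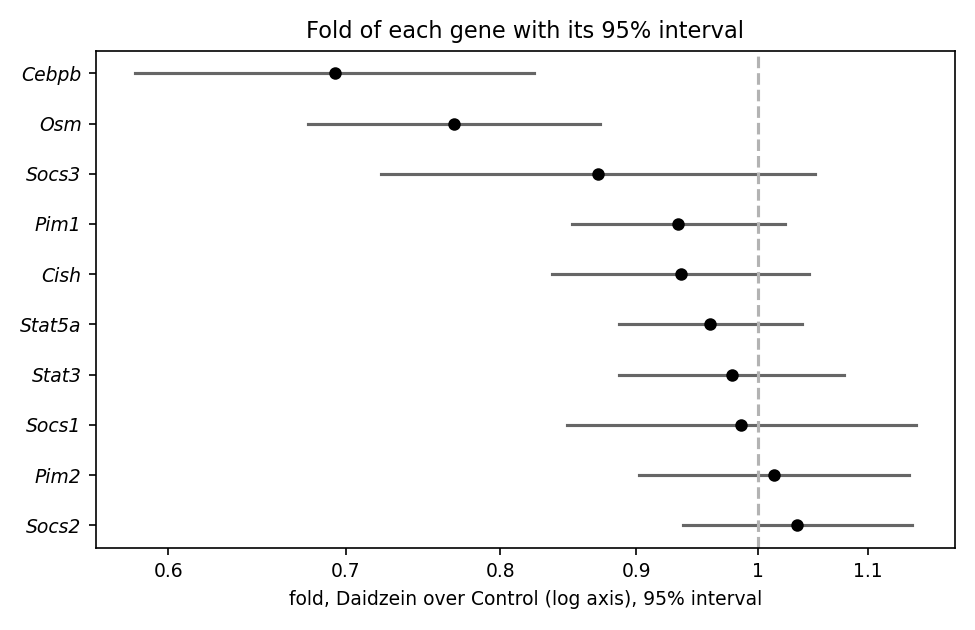
Fold of each of the 10 genes, Daidzein over Control (horizontal log axis), from the edgeR fit, with points for the fold and lines for its 95% interval; the dashed line marks a fold of 1. Cebpb at 0.693 and Osm at 0.769 lie farthest to the left and Socs2 at 1.03 farthest to the right.

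Osm encodes oncostatin M, a cytokine of the interleukin 6 family that blood cells secrete, and is a known STAT5 target. Osm (ENSMUSG00000058755; GRCm38 chromosome 11, 4236420 to 4241026, plus strand) is annotated as a protein-coding gene and shares no exon with a neighbour. It had 1665 and 1407 reads in the Control libraries and 1175 and 1364 in the Daidzein libraries. Scaled by library size with TMM normalization, this is 103 and 82.0 CPM (counts scaled to a common library total) with DMSO and 68.8 and 73.3 with daidzein. Both Daidzein libraries were below both Control libraries, and the 2 Control libraries were farther apart than the 2 Daidzein libraries. Means were 92.5 ± 14.9 and 71.0 ± 3.17 CPM (SD, n = 2 each). The edgeR fit gave a fold of 0.769 (95% interval 0.677 to 0.872), with an edgeR adjusted p of 0.628. The exact Poisson intervals of the Control libraries, before TMM scaling, were 97.7 to 108 and 77.9 to 86.6 CPM, so these replicates differed by more than counting error. The log2 difference, -0.38, was -0.21 without Control replicate 1 and -0.53 without Control replicate 2.

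Cebpb had the lowest fold of the 10. Its gene (ENSMUSG00000056501; GRCm38 chromosome 2, 167688915 to 167690418, plus strand) is protein-coding and shares 312 exon bases with Tmem189 on the opposite strand. The exonic length of Cebpb is 1504 bases, and without the strand setting reads of the shared bases cannot be separated. Cebpb had 458 and 485 reads in the Control libraries and 383 and 315 in the Daidzein libraries. The normalised levels were 28.3 and 28.2 CPM with DMSO and 22.4 and 16.9 with daidzein. Here the Control libraries were close and the Daidzein libraries apart, with exact Poisson intervals of 20.1 to 24.6 and 15.2 to 19.0 CPM before TMM scaling. Means were 28.3 ± 0.069 and 19.7 ± 3.89 CPM (SD, n = 2 each). The edgeR fit gave a fold of 0.693 (95% interval 0.583 to 0.824), with an edgeR adjusted p of 0.628. The log2 difference, -0.53, was -0.33 without Daidzein replicate 2 and -0.74 without Daidzein replicate 1.

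Guanine and cytosine (GC) content moved with the difference over genes, with a Spearman correlation of -0.21 over 11692 genes of these 4 libraries. The longest Cebpb transcript has 67.2% GC and that of Osm 54.4%, against a median of 49.7% over tested genes. With a trend on GC removed, an alternative chosen after seeing the data, the log2 difference was -0.47 for Cebpb and -0.36 for Osm. That of Stat5a went from -0.06 to -0.03 and that of Socs1 from -0.02 to 0.01, while the other 6 of the 10 kept their sign.

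The feedback inhibitors Cish, Socs1, Socs2 and Socs3 had folds from 0.871 (Socs3) to 1.03 (Socs2), each with a 95% interval that included 1. Cish (ENSMUSG00000032578; GRCm38 chromosome 9, 107296026 to 107302784, plus strand), which encodes a STAT5-induced inhibitor that binds cytokine receptors, had 1569 and 1432 reads with DMSO and 1499 and 1510 with daidzein. Its normalised levels were 97.1 and 83.4 CPM with DMSO and 87.7 and 81.1 with daidzein, so the groups overlapped. The fold was 0.935 (95% interval 0.837 to 1.05), and the log2 difference lay between -0.20 and 0.02 when any 1 library was left out. It shares 479 exon bases with Gm17041 and 261 with Gm17040 on the opposite strand, and without the strand setting reads of these genes cannot be separated.

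Socs1 (ENSMUSG00000038037; GRCm38 chromosome 16, 10782240 to 10785536, minus strand) encodes a protein that blocks the JAK kinases directly. It stood at 62.3 and 47.4 CPM with DMSO and 50.0 and 57.9 CPM with daidzein, and the edgeR fit gave a fold of 0.986 (95% interval 0.847 to 1.15). Its replicates differed within both groups, in opposite order by replicate number: replicate 1 was the higher in Control and replicate 2 in Daidzein. The log2 difference was 0.19 without Control replicate 1 and -0.20 without Control replicate 2.

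Socs2 (ENSMUSG00000020027; GRCm38 chromosome 10, 95385362 to 95417180, minus strand), known as a brake on growth hormone signals, stood at 90.6 and 87.8 CPM with DMSO and 88.1 and 96.3 CPM with daidzein. The fold was 1.03 (95% interval 0.937 to 1.14). It was 1 of the 2 genes that were higher with daidzein, and its groups overlapped. The log2 difference lay between -0.01 and 0.11 when any 1 library was left out.

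Socs3 (ENSMUSG00000053113; GRCm38 chromosome 11, 117966079 to 117970047, minus strand) encodes the inhibitor of the Il6st receptor chain and is a known STAT3 target. It had 275 and 245 reads with DMSO and 229 and 257 with daidzein. The normalised levels were 17.0 and 14.3 CPM with DMSO and 13.4 and 13.8 CPM with daidzein, and the groups did not overlap. The fold was 0.871 (95% interval 0.721 to 1.05). The log2 difference, -0.20, was -0.07 without Control replicate 1 and -0.32 without Control replicate 2.

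The Pim kinases, which support cell survival and protein synthesis, were close to level. Pim1 (ENSMUSG00000024014; GRCm38 chromosome 17, 29490753 to 29496112, plus strand) stood at 177 and 159 CPM with DMSO and 159 and 155 CPM with daidzein. The second Control library, at 158.895 CPM, was above the first Daidzein library, at 158.667 CPM, by less than counting error. The fold was 0.933 (95% interval 0.851 to 1.02), and the log2 difference, -0.10, was -0.02 without Control replicate 1 and -0.17 without Control replicate 2. Pim1 shares 488 exon bases with the antisense gene Gm26885. Pim2 (ENSMUSG00000031155; GRCm38 chromosome X, 7878262 to 7883432, plus strand) stood at 54.2 and 48.1 CPM with DMSO and 51.9 and 51.8 CPM with daidzein, with a fold of 1.01 and an interval of 0.903 to 1.14. Both of its Daidzein libraries lay between the Control libraries, and the log2 difference lay between -0.06 and 0.11 when any 1 library was left out.

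The transcription factor genes Stat3 and Stat5a had the most even levels of the 10. Stat5a (ENSMUSG00000004043; GRCm38 chromosome 11, 100859351 to 100885169, plus strand) had 3726 and 3944 reads with DMSO and 3778 and 4110 with daidzein. The normalised levels were 231 and 230 CPM with DMSO and 221 and 221 CPM with daidzein, so the groups did not overlap. The fold was 0.960 (95% interval 0.887 to 1.04), and the log2 difference stayed between -0.06 and -0.05 with a library left out. Stat3 (ENSMUSG00000004040; GRCm38 chromosome 11, 100885098 to 100939540, minus strand) stood at 82.4 and 79.0 CPM with DMSO and 78.1 and 79.7 CPM with daidzein, with a fold of 0.978 and an interval of 0.887 to 1.08. Its groups overlapped, and its log2 difference, -0.03, was -0.00085 without Control replicate 1 and -0.06 without Control replicate 2. The 2 genes face each other and share 72 exon bases at their ends. Stat5a also has a close copy beside it, Stat5b, and reads that match both may be missing or split.

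Control replicate 1 held the highest normalised level for 9 of the 10 genes, and Daidzein replicate 2 for Socs2. For Cebpb and Stat5a this lead over Control replicate 2 was within counting error, at 28.347 against 28.249 and 230.616 against 229.722 CPM. In FPKM, without TMM scaling, Control replicate 2 was the higher for both, at 18.84 against 18.76 and 32.3 against 32.18. Over all tested genes, Control replicate 1 was the highest library for 28.2%. Fos, called over all genes, was also highest there, at 63.6 CPM, against 45.8 in Control replicate 2 and 28.0 and 31.1 in the Daidzein libraries. Since the genes were chosen on this contrast, nothing is read from the count of 9. Why this library was the highest for them was not tested. Without it, the log2 differences of Osm, Socs3, Pim1 and Stat3 were nearer to 0, those of Cish and Socs1 were above 0, and that of Cebpb stayed at -0.53.

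**Figure D3:**
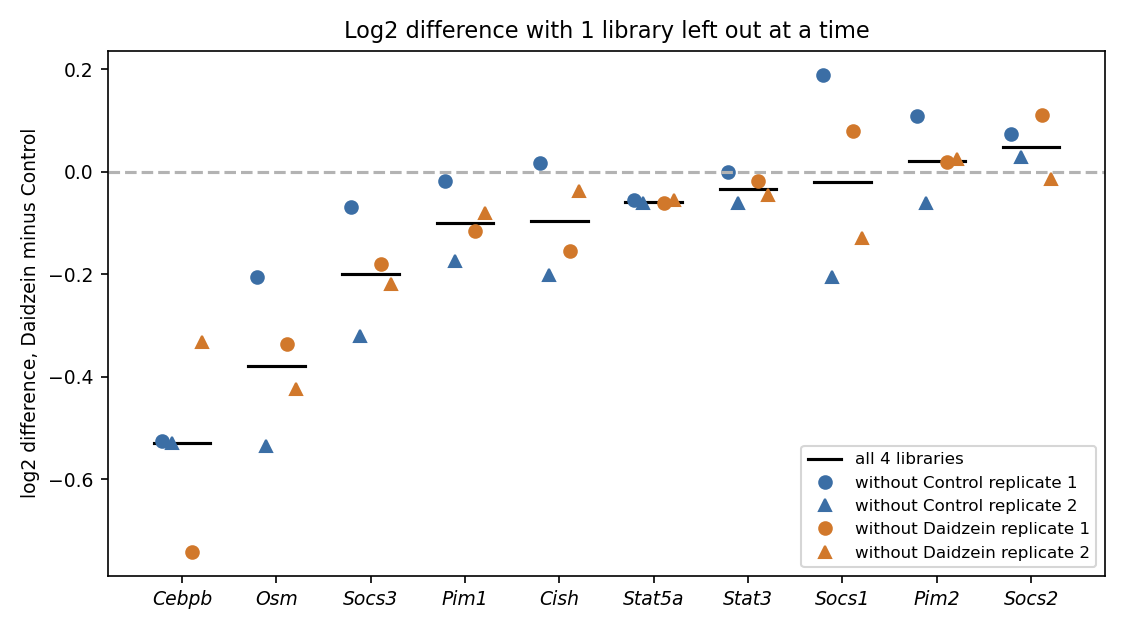
Log2 difference of each of the 10 genes, Daidzein minus Control (vertical axis), with all 4 libraries (black bar) and with 1 library left out (blue for a Control library, orange for a Daidzein library, circles replicate 1, triangles replicate 2). Cebpb, Osm, Socs3, Pim1, Stat5a and Stat3 stay below 0 throughout, while Cish, Socs1, Pim2 and Socs2 fall on both sides of 0.

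The genes with the most similar profile over the 4 libraries were sought among 9927 tested genes with at least 1 FPKM, by the distance between log2 CPM values centred on their mean. Nearest to Osm were the gene model Gm10231, Nmnat1, an enzyme of NAD synthesis, and Rcn3, a calcium-binding protein of the secretory pathway, at distances of 0.043, 0.043 and 0.052. Nearest to Cish were Gm11221, Tmem268 and Tmem38a at 0.013, 0.018 and 0.019. Nearest to Cebpb were Gm5881, Rgs11, a regulator of G protein signals, and Cd74, the invariant chain of MHC class II, at 0.074, 0.12 and 0.12. With 4 libraries such likeness describes these libraries only.

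The rest of the pathway was described from 8 lists of 89 genes ordered by role, of which 65 had enough reads to test. By edgeR 0 rose and 0 fell at an adjusted p of 0.05, with 4 at an unadjusted p under 0.05: Junb, Ier3, Jak3 and Icam1. Over all tested genes these shares were 0.0171% and 2.91%. DESeq2 and limma called 0 as well. Of the 65, 26 were higher and 39 lower, with a median log2 difference of -0.04, where 5697 of all tested genes were higher and 6003 lower. With a library left out the count was 2 without Control replicate 2 (Junb and Ier3), 1 without Daidzein replicate 1 and 1 without Daidzein replicate 2 (Ier3 both times), and 0 without Control replicate 1. With no filter on low counts it was 2, Ier3 and Junb.

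Among ligands of the oncostatin M family, Il6 averaged 7.35 FPKM and Lif 4.04 FPKM, both below the 35.9 FPKM of Osm. Il6 had a fold of 0.967 (95% interval 0.802 to 1.17) and Lif of 0.861 (0.717 to 1.03). Il27 and Ctf1 had 0 reads.

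Of the receptor chains through which oncostatin M and LIF act, Osmr and Lifr had 0 reads and Il6st was low. For Osmr and Lifr a count of 0 still permits 0.162 to 0.185 CPM per library, and Il27ra had 0 as well. Il6st, the chain that the family shares, had 136 and 154 reads with DMSO and 119 and 164 with daidzein, at 0.745 FPKM on average. Its fold was 0.909 (0.718 to 1.15). Il6ra, the interleukin 6 binding chain, had 11 and 12 reads with DMSO and 6 and 8 with daidzein. Of 8 chains listed, 3 had enough reads to test, all 3 were lower with daidzein and 0 passed the test.

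Receptor chains that act through STAT5 were abundant. Csf2rb, the shared beta chain of the receptors for interleukin 3, interleukin 5 and GM-CSF, averaged 98.8 FPKM and its close copy Csf2rb2 86.0 FPKM. Reads that match both may be missing or split. Their folds were 0.991 (0.918 to 1.07) and 0.967 (0.897 to 1.04). Il3ra, the interleukin 3 binding chain, had a fold of 1.26 (0.924 to 1.71), at 63 and 65 reads with DMSO and 91 and 81 with daidzein. Il9r had a fold of 0.914, Il2ra of 0.921 and Csf2ra of 0.790, and each of their intervals included 1. Prlr had 0 reads.

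Of the 4 JAK kinases, 2 were higher and 2 lower and 0 passed the test. Jak3, which serves receptors with the Il2rg chain, stood at 45.4 and 45.4 CPM with DMSO and 38.6 and 41.0 with daidzein. Its fold was 0.876 (0.778 to 0.987) with an edgeR adjusted p of 1.00. Jak1 was the most abundant at 20.7 FPKM, with a fold of 1.02 (0.939 to 1.12). Jak2 and Tyk2 had folds of 0.956 and 1.00.

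Stat5b, the close copy of Stat5a, averaged 34.0 FPKM, with a fold of 0.997 (0.918 to 1.08). Stat6 had a fold of 1.04 and Stat2 of 1.01. Of the 4 further STAT genes tested 0 passed.

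All 16 further inhibitors had enough reads to test, with 10 higher, 6 lower and 0 past the threshold. Ptpn6, the phosphatase SHP-1 of blood cells, was the most abundant at 105 FPKM, with a fold of 0.983 (0.909 to 1.06). Pias2, Ptpn11, Ptpn1 and Pias4 had folds of 1.05 to 1.08 and intervals that included 1.

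Among other C/EBP genes, Cebpa had 0 reads in every library. Cebpz and Cebpg averaged 29.6 and 8.99 FPKM, with folds of 1.06 (0.959 to 1.16) and 1.06 (0.936 to 1.19). Ddit3 had a fold of 1.02. All 3 tested were higher and 0 passed the test.

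The test covered 24 further genes, listed as STAT3 and STAT5 targets from general knowledge, of which 18 were lower and 6 higher. They had a median log2 difference of -0.06 and 0 past the threshold. Whether STAT proteins drive these genes in these cells was not tested. Ier3 and Junb, early response genes, had folds of 0.739 (0.638 to 0.856) and 0.805 (0.727 to 0.891), each with an edgeR adjusted p of 0.628. The log2 difference of Ier3, -0.44, was -0.18 without Control replicate 1 and -0.65 without Control replicate 2. Icam1, an adhesion molecule, had a fold of 0.887 (0.791 to 0.994) with an edgeR adjusted p of 1.00, and Gfi1, a repressor in blood cells, of 0.916 (0.810 to 1.04). Id1 averaged 109.7 FPKM with a fold of 0.999 (0.896 to 1.11). Il10 and Saa3 had 0 reads.

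**Figure D4:**
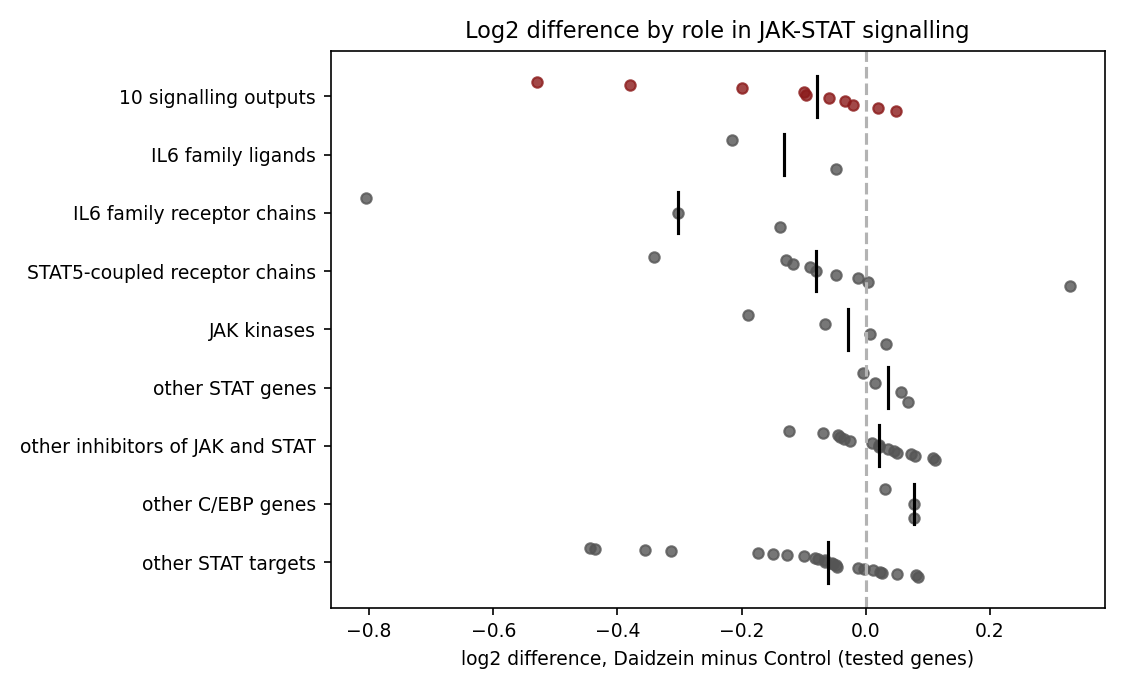
Log2 difference, Daidzein minus Control (horizontal axis), of the 10 genes (dark red) and of the tested genes of 8 lists of the pathway (grey), 1 point per gene, with a bar at each median. Most points lie within 0.2 of 0, and Cebpb and Osm are the 2 leftmost of the 10 genes.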

How the data were processed

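The members, lists and rules for naming genes were chosen with earlier results of these data known. The deposited table holds read counts per gene, not normalized, and FPKM values by the authors. Per the submitters' processing notes, the tools were DESeq2, HTSeq 0.6.1 and HISAT2 2.0.1 and the build was mm9, without a stated role or sequence. The table's coordinates are on GRCm38, since 99.6% of the 55141 identifiers found in GENCODE M21 had the same start there. Whether counting used strand is not stated in these sources, so reads in exons shared with a gene on the opposite strand cannot be separated.

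The test on counts was that of edgeR 4.0.16, run in R 4.3.3 (TMM, default filterByExpr, quasi-likelihood F test, Benjamini-Hochberg adjusted p of 0.05 over 11700 genes), with 2 libraries per group. The 95% intervals of folds come from the same fit. For 0 reads the floor was 3 counts, and Poisson intervals and floors cover counting error only. All pairs of libraries differed by more than sampling noise (chi-square per degree of freedom at least 2.23). The steps were tested on simulated data. The limma alternative used log2(FPKM + 1).

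Named besides the 10 genes are, per list, the 4 with the smallest p, the 2 with the highest mean FPKM and those with 0 reads, up to 3 abundant markers per list with chosen defining markers, and the 3 nearest profiles of Osm, Cish and Cebpb. Genes that share exons with a named gene, and Fcgr1, Cd68, Fcer1a, Tpsb2, Tpsab1 and Mcpt4, were named after their values were seen. Some genes that the rule names are not reported here. Alternatives were DESeq2 1.42.0, no filter, a filter of 5 CPM in 2 libraries, robust estimation, the replicate number as a block, limma 3.58.1, a prior count of 0.5, each library left out and, chosen after seeing the data, removal of a GC trend.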

Additional observations from a re-analysis of the deposited data

How the results depend on the processing

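By edgeR the count of genes called, 2, was 11 with no filter on reads and 1 with the stricter filter, and it was 1 by DESeq2, 0 by limma on FPKM and 4 to 17 with a library left out. The count among the 10 genes, 0, was 2 without a filter (Osm and Cebpb) and 0 to 1 with a library left out. The count among the 65 other pathway genes, 0, was 2 without a filter (Ier3 and Junb) and 0 to 2 with a library left out. A lone library of a group is then assumed to vary like the other group. With the replicate number as a block the 3 counts were 27, 2 (Osm and Cebpb) and 2 (Ier3 and Junb). No label pairs same-numbered libraries, and over genes the deviations of the 2 pairs correlated at 0.09. Yet same-numbered libraries were the most alike, with chi-square ratios of 2.23 for replicate 2 and 3.51 for replicate 1. This ratio was 4.17 between the Control libraries and 4.38 between the Daidzein libraries. Libraries of different group and number had 4.05 and 4.81. Whether same-numbered libraries belong together was not tested. Of 120 recomputed log2 differences of the 10 genes, 111 moved by less than the spread between replicates, 9 moved by more and 6 had the other sign. With 2 libraries per group, that spread largely bounds the shift from leaving 1 library out. The count of 111 therefore cannot show that the differences are stable. Of 392 values of 33 named pathway genes, 8 passed the threshold, all of Ier3 and Junb, and 27 had the other sign. Where counts changed, the cause was not tested. With 2 libraries per group, differences within the intervals given could not be resolved.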
